A study of Homo sapiens with 8 samples.

Results

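The 9 genes of prostaglandin E2 synthesis, breakdown and sensing (PLA2G4A, PTGS1, PTGS2, PTGES, PTGES2, PTGES3, HPGD, PTGER2 and PTGER4) followed here were measured in RNA sequencing of BEAS-2B cells. All 9 of the 9 symbols had a row in the tables of 26485 genes. Of these, 5 reached a mean of 1 FPKM over the 8 libraries (FPKM, sequenced fragments scaled to transcript length and library size) and were tested. The other 4 genes, PTGS1, PTGS2, HPGD and PTGER2, were below it and were too low to judge by a test. BEAS-2B is a human bronchial epithelial cell line immortalised with a viral construct. House dust mite (HDM) extract is an allergen mixture, PBS is its saline vehicle, and LY96 encodes MD-2, the lipopolysaccharide-binding partner of the receptor TLR4.

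The 4 groups were LY96 siRNA with HDM (3 libraries), control siRNA with HDM (3 libraries), LY96 siRNA with PBS (1 library) and control siRNA with PBS (1 library). All cells were grown in BEGM, moved to BEBM medium 24 h before the stimulus, and harvested 24 h after it. Nothing in the labels tells whether an HDM group's 3 libraries are separate cultures, so p-values may reflect technical spread alone. LY96 was listed at 0 FPKM in all 8 libraries, control siRNA included, so the siRNA groups are known by their labels alone. FPKM totals were 329777 to 340328 per library, and the read depth is unknown. All 7 epithelial markers (EPCAM, CDH1 and the keratin genes KRT5, KRT7, KRT8, KRT18 and KRT19) averaged at least 1 FPKM, while 0 of 6 leukocyte, 0 of 4 mast cell and 0 of 4 endothelial markers did. Of 5 fibroblast markers 1 did, COL1A1, at a mean of 7.35 FPKM. In bulk RNA, fewer cells that express a gene and less of its RNA per cell cannot be told apart.

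Prostaglandin E2 is made in steps. The cytosolic phospholipase A2 encoded by PLA2G4A frees arachidonic acid from membranes. The cyclooxygenases encoded by PTGS1 (broadly expressed) and PTGS2 (induced by inflammatory signals) turn it into prostaglandin H2, and the prostaglandin E synthases finish the product. HPGD encodes the dehydrogenase that inactivates prostaglandins, and PTGER2 and PTGER4 encode the EP2 and EP4 receptors, which raise cyclic AMP. In airway epithelium, prostaglandin E2 is known for limiting inflammation and relaxing neighbouring smooth muscle.

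None of the 5 tested genes passed the test in any of the 5 comparisons, and the levels of the 9 genes spanned a wide range. Averaged over the 8 libraries, PTGES3 ranked 305 of 26485 genes by FPKM and PTGES2 ranked 2639, while PTGES ranked 10206, PTGER4 11674 and PLA2G4A 12450. PTGS1 ranked 12705, PTGS2 14636, HPGD 14982 and PTGER2 15117. PTGES3 lay above PTGES2, PTGES2 above PTGES and PTGES above PTGER4 in 8 of 8 libraries, with no overlap of the ranges. PTGER4 lay above PLA2G4A in 7 of 8 libraries and PLA2G4A above PTGS1 in 5 of 8, and these neighbours overlapped. PTGS1 lay above PTGS2 in 8 of 8 libraries without overlap, by 3.27-fold in mean FPKM. PTGS2, HPGD and PTGER2 overlapped, and neither PTGS2 and HPGD nor HPGD and PTGER2 kept one order in more than 4 of 8 libraries.

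**Figure D1:**
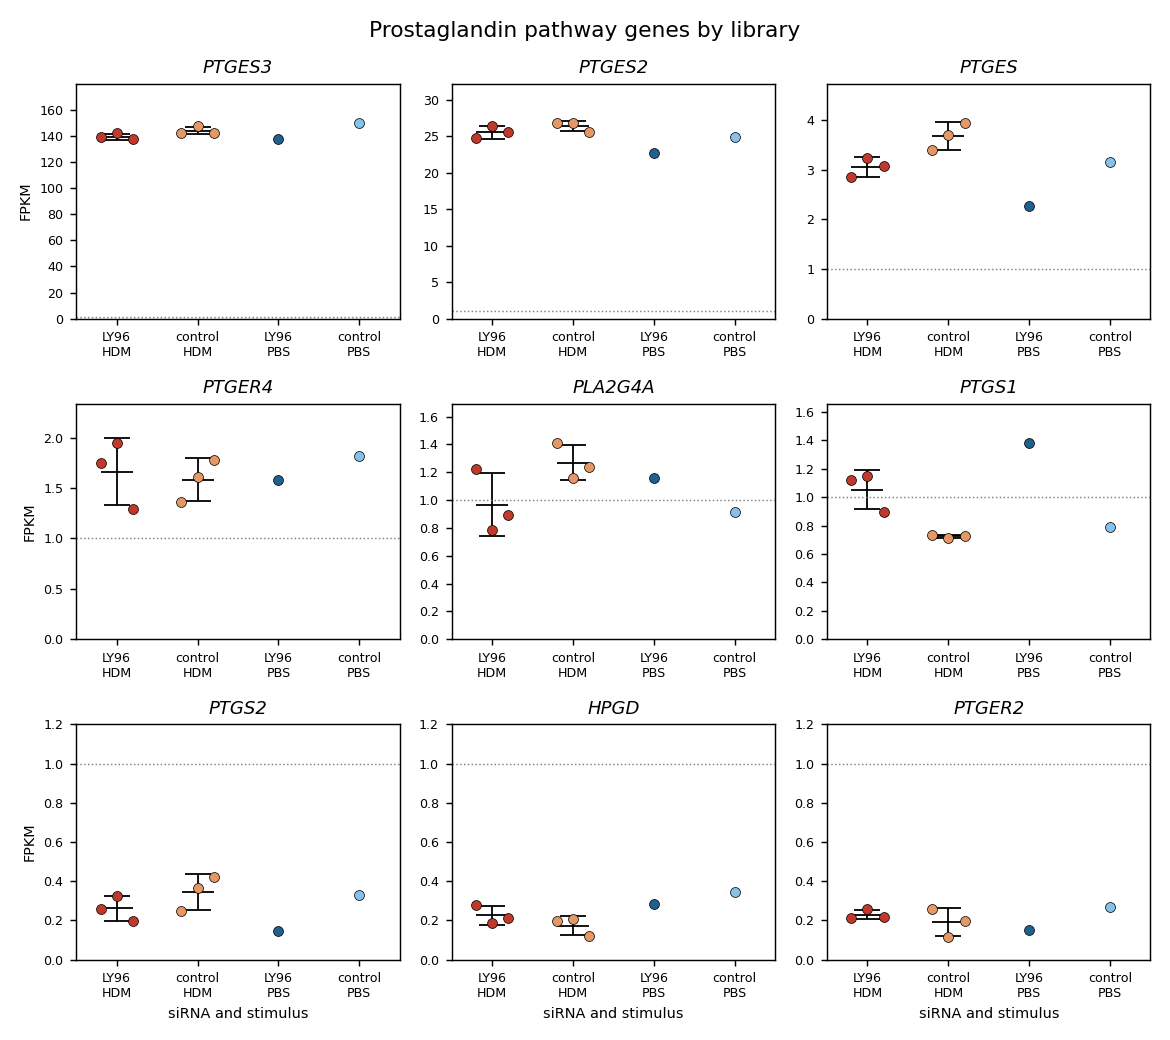
FPKM (y axis, linear, from 0) of each of the 9 genes in the 4 groups (x axis), ordered by mean level. Points are libraries, bars are the mean and SD of the 3 HDM libraries, and the dotted line marks 1 FPKM. PTGS2, HPGD and PTGER2 stay under 0.43 FPKM in every library. All 4 LY96 siRNA libraries of PTGS1 lie above its 4 control siRNA libraries, and those of PTGES3 lie narrowly below. The share of all genes with such orders was not counted.

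The 3 prostaglandin E synthase genes differed in level by more than they differed between any groups. PTGES3 (chromosome 12, 56663341 to 56688408, minus strand, GRCh38) encodes the cytosolic synthase, also known as the HSP90 co-chaperone p23. It was at 139, 142 and 137 FPKM with LY96 siRNA and HDM, 142, 147 and 142 FPKM with control siRNA and HDM, 138 FPKM with LY96 siRNA and PBS, and 150.0 FPKM with control siRNA and PBS. All 4 LY96 siRNA libraries lay below all 4 control siRNA libraries, by a narrow margin (highest LY96 siRNA library 141.9 FPKM, lowest control siRNA library 142.4 FPKM). Among the HDM libraries alone, 21.8% of genes averaging 1 FPKM or more had this order. The share with the PBS libraries included was not counted. GENCODE v29 names 5 pseudogenes of PTGES3, none with a row in the tables, so reads of such copies may have been counted to the gene.

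PTGES2 (chromosome 9, 128120693 to 128128462, minus strand) encodes a membrane-associated synthase found in most cells. It was at 24.7, 26.4 and 25.5 FPKM with LY96 siRNA and HDM, 26.8, 26.8 and 25.5 FPKM with control siRNA and HDM, 22.8 FPKM with LY96 siRNA and PBS, and 24.9 FPKM with control siRNA and PBS. All 6 HDM libraries lay above the PBS library of their siRNA, as in 16.0% of genes averaging 1 FPKM or more. The siRNA groups overlapped under HDM.

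PTGES (chromosome 9, 129738331 to 129753047, minus strand) encodes the microsomal synthase that is usually induced together with PTGS2. It was at 2.85, 3.24 and 3.08 FPKM with LY96 siRNA and HDM, 3.40, 3.70 and 3.95 FPKM with control siRNA and HDM, 2.27 FPKM with LY96 siRNA and PBS, and 3.16 FPKM with control siRNA and PBS. With each siRNA, all HDM libraries lay above the PBS library, and under HDM all LY96 siRNA libraries lay below all control siRNA libraries. Of genes averaging 1 FPKM or more, 16.0% had the first of these orders and 21.8% the second. The share with both was not counted. PTGES did not pass the test in any of the 5 comparisons, though it passed for the siRNA effect in an alternative model given below (limma adjusted p = 0.0222).

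The cyclooxygenase genes were low throughout. PTGS2 (chromosome 1, 186671791 to 186680427, minus strand) was at 0.259, 0.327 and 0.199 FPKM with LY96 siRNA and HDM, 0.246, 0.364 and 0.424 FPKM with control siRNA and HDM, 0.147 FPKM with LY96 siRNA and PBS, and 0.331 FPKM with control siRNA and PBS. The control siRNA PBS library lay inside the range of its HDM libraries, and the LY96 siRNA PBS library lay below its own. In the same libraries CXCL8, the interleukin-8 gene, averaged 18.8 ± 2.51 FPKM with LY96 siRNA and HDM and 7.53 ± 0.276 FPKM with control siRNA and HDM (SD, n = 3 each), against 0.607 FPKM with LY96 siRNA and PBS and 0.590 FPKM with control siRNA and PBS (HDM over both siRNAs log2 3.02 ± 0.09 SE, limma adjusted p = 3.72e-07). A transcript response of CXCL8 to HDM was thus measurable at this time point, the only one sampled. PTGS2 remained below 0.43 FPKM with HDM, too low to judge whether it responded. Its ratio of HDM to PBS was 1.78 with LY96 siRNA and 1.04 with control siRNA, each on 1 PBS library.

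PTGS1 (chromosome 9, 122370530 to 122395703, plus strand) was at 1.12, 1.15 and 0.896 FPKM with LY96 siRNA and HDM, 0.732, 0.712 and 0.729 FPKM with control siRNA and HDM, 1.38 FPKM with LY96 siRNA and PBS, and 0.789 FPKM with control siRNA and PBS. Every LY96 siRNA library was above every control siRNA library, and every HDM library was below the PBS library of its siRNA. The mean ratio of LY96 to control siRNA was 1.46 under HDM and 1.75 under PBS. Its mean was under the level tested, and for genes averaging 0.1 to 1 FPKM, 7.94% likewise had all LY96 siRNA HDM libraries above all control siRNA HDM libraries. That share covers the HDM libraries alone, and the share with the PBS libraries included was not counted. Without the low-value filter, PTGS1 had log2 0.25 and a limma adjusted p of 0.0921 under HDM. In an additive model (siRNA plus stimulus) over all 8 libraries without that filter, chosen after seeing the data, it had log2 0.29 and a limma adjusted p of 0.0306, where 9.8% of 20077 genes passed.

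The bases just before the transcription starts of both cyclooxygenase genes and of PTGES are shown because PTGS2 and PTGES are known as co-induced genes and PTGS1 as the broadly expressed one, whereas here PTGS2 was lowest of the 3. Each window holds the 250 bases before a RefSeq start (GRCh38.p14), written 5′ to 3′ on the strand of the gene. Capitals mark matches, on either strand, to a CRE core (TGACG), a C/EBP motif (TTNCGNAA), a TATA box (TATAAA) or a GC box (GGGCGG). An AP-1 motif (TGANTCA), a C/EBP-ATF response element (TGATGNAA) and a strict NF-kB motif (GGG, then A or G, any base, A or T, C or T, C or T, and CC) were also searched and had no match in these 3 windows. The strict NF-kB form misses known sites, so a looser form (GGGNNNNNCC) was searched apart and is not in capitals.
PTGS2, chr1:186680424-186680673, - strand: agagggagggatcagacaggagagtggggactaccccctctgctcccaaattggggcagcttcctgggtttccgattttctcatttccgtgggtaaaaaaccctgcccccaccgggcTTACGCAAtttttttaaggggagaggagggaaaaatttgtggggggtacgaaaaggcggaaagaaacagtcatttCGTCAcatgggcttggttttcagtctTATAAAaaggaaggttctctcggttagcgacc
PTGS1, chr9:122370283-122370532, + strand: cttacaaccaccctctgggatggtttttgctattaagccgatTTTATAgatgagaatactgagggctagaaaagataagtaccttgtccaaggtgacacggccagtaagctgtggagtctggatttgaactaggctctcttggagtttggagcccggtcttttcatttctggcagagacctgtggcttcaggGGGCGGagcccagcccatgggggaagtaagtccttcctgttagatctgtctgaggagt
PTGES, chr9:129753043-129753292, - strand: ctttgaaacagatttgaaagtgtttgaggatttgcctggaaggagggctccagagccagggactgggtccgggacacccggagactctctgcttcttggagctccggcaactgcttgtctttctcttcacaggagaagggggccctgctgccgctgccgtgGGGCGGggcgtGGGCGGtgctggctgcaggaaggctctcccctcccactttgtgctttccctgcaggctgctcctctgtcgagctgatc

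Counted from the start, the PTGS2 window held a C/EBP match at -133 to -126, a CRE core at -58 to -54 and a TATA box at -32 to -27, and no matches overlapped. The PTGS1 window, at the upstream of its 2 RefSeq starts, held a GC box at -58 to -53. Its TATA box match, at -208 to -203, was on the strand opposite to the gene, whereas that of PTGS2 was on the strand of the gene. The PTGES window held GC boxes at -89 to -84 and -78 to -73 and no TATA box. Of 35116 RefSeq windows of this length, 2.18% held the C/EBP motif, 21.2% the CRE core, 10.7% the TATA box, 42.6% the GC box, 5.21% the NF-kB motif, 6.57% the AP-1 motif and 3.14% the C/EBP-ATF response element. A window was found for all 9 genes, and only that of PTGER4 held a match to the strict NF-kB motif (-244 to -235). The looser form was found in 54.4% of the 35116 windows. The PTGS2 window held 3 overlapping matches to it (-225 to -214), in a stretch known as an NF-kB site of the human gene. The PTGS1 window held 2 overlapping matches (-58 to -48), which also overlap its GC box, and the PTGES window held 1 (-57 to -48). These matches describe the letters of the windows and not binding.

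PLA2G4A (chromosome 1, 186828953 to 186988981, plus strand) lies 149 kb from PTGS2. It was at 1.22, 0.785 and 0.892 FPKM with LY96 siRNA and HDM, 1.41, 1.16 and 1.24 FPKM with control siRNA and HDM, 1.16 FPKM with LY96 siRNA and PBS, and 0.916 FPKM with control siRNA and PBS. All 3 control siRNA HDM libraries lay above their PBS library, and 1 of 3 LY96 siRNA HDM libraries did. Each siRNA has 1 PBS library, and the share of all genes with this pattern was not counted. The difference in HDM response did not pass (limma adjusted p = 0.719), and the siRNA groups overlapped under HDM. HPGD (chromosome 4, 174490177 to 174523154, minus strand) was at 0.281, 0.185 and 0.215 FPKM with LY96 siRNA and HDM, 0.195, 0.206 and 0.119 FPKM with control siRNA and HDM, 0.283 FPKM with LY96 siRNA and PBS, and 0.345 FPKM with control siRNA and PBS. All 6 HDM libraries of HPGD lay below the PBS library of their siRNA, as did those of PTGS1; this was the case for 10.3% of genes averaging 0.1 to 1 FPKM.

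Of the receptor genes, PTGER4 (chromosome 5, 40679498 to 40693735, plus strand) was the higher. It was at 1.74, 1.94 and 1.29 FPKM with LY96 siRNA and HDM, 1.36, 1.61 and 1.78 FPKM with control siRNA and HDM, 1.58 FPKM with LY96 siRNA and PBS, and 1.81 FPKM with control siRNA and PBS. The siRNA groups overlapped under HDM, the LY96 siRNA PBS library lay inside the range of its HDM libraries, and the control siRNA PBS library lay just above its own. PTGER4 overlaps TTC33 on the opposite strand (3.19 to 3.88 FPKM), and without knowledge of strand in the counting their shared reads cannot be told apart. GENCODE v29 also names 2 pseudogenes of PTGER4, none with a row in the tables, so reads of such copies may have been counted to PTGER4. PTGER2 (chromosome 14, 52314305 to 52328606, plus strand) was at 0.214, 0.256 and 0.217 FPKM with LY96 siRNA and HDM, 0.258, 0.116 and 0.198 FPKM with control siRNA and HDM, 0.149 FPKM with LY96 siRNA and PBS, and 0.267 FPKM with control siRNA and PBS. At such levels no direction is read from PTGER2.

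The first comparison asked whether LY96 siRNA altered these genes in HDM-stimulated cells. With limma on log2(FPKM + 1), 0 of the 5 tested genes rose or fell at a Benjamini-Hochberg adjusted p below 0.05. Of all 12598 tested genes, 15.6% did. Before adjustment, 3926 of the 12598 had a p below 0.05, and so did 1 of the 5. That gene was PTGES, at log2 -0.21 ± 0.07 (SE, 95% confidence interval -0.37 to -0.05, adjusted p = 0.0773). Its 3 LY96 siRNA libraries lay below its 3 control siRNA libraries, and so did those of PTGES3. The same held for 21.8% of genes averaging 1 FPKM or more. An additive model over all 8 libraries, which also sets the PBS libraries against each other, gave PTGES log2 -0.24 and adjusted p = 0.0222. In that model 1 of the 5 genes passed, where 19.7% of 12604 genes did.

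The differences of the other 4 tested genes were small or imprecise. PLA2G4A was at log2 -0.21 ± 0.11 (SE, interval -0.45 to 0.03, adjusted p = 0.206 in limma). PTGES3 was at log2 -0.05 (interval -0.11 to 0.02), PTGES2 at -0.04 (-0.13 to 0.04) and PTGER4 at 0.04 (-0.21 to 0.29). The median log2 difference of the 5 genes was -0.05, against -0.02 over all genes tested. Ribosomal RNA took 1.03% to 1.31% of the FPKM total in the LY96 siRNA HDM libraries and 0.475% to 0.824% in the control siRNA HDM libraries. The summed epithelial markers were at 1156 to 1220 FPKM with LY96 siRNA and HDM and 1278 to 1322 FPKM with control siRNA and HDM, and 5 fibroblast markers, led by COL1A1 with DCN and LUM at 0, at 7.47 to 9.60 and 5.82 to 6.22 FPKM in the same order. The epithelial markers did not move as one. CDH1, the E-cadherin gene, was higher with LY96 siRNA (log2 0.49, limma adjusted p = 0.000814), whereas KRT19 (log2 -0.66, adjusted p = 0.000244), KRT8 (log2 -0.25, adjusted p = 0.00267) and KRT18 (log2 -0.24, adjusted p = 0.00099) were lower. EPCAM, KRT5 and KRT7 did not pass (log2 -0.22, 0.09 and -0.16). The part of these markers and of ribosomal RNA in the differences above was not tested.

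**Figure D2:**
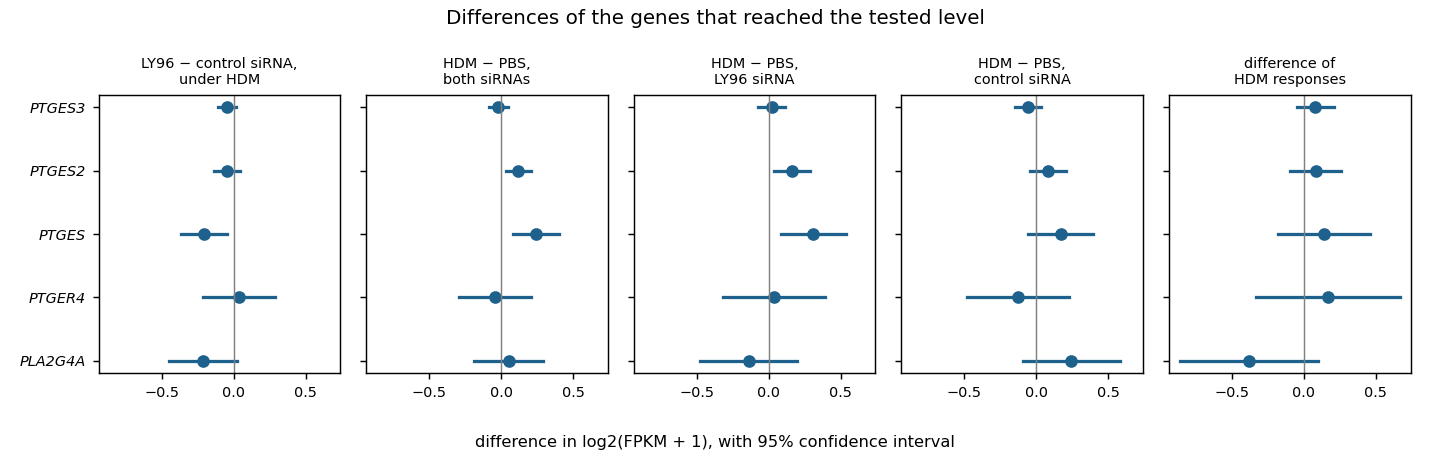
Difference in log2(FPKM + 1) (x axis) of the 5 tested genes (y axis), with 95% confidence intervals from limma, in each of the 5 comparisons. The intervals of PTGES leave out 0 in the first 3 panels and those of PTGES2 in the 2 panels for HDM over both siRNAs and with LY96 siRNA, but each adjusted p stays above 0.05, and the wide intervals are those of the low genes PTGER4 and PLA2G4A.

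The second comparison asked what HDM did to these genes. Over both siRNAs, 0 of 5 tested genes passed, where 8.36% of 12604 genes did. An unadjusted p below 0.05 was found for 2 of the 5 and for 2724 of the 12604. PTGES was at log2 0.24 ± 0.07 (SE, interval 0.08 to 0.40, limma adjusted p = 0.0766) and was above its PBS library in 6 of 6 HDM libraries. PTGES2 was at log2 0.12 ± 0.04 (SE, interval 0.03 to 0.21, adjusted p = 0.109), likewise in 6 of 6. Of genes averaging 1 FPKM or more, 16.0% had all HDM libraries above the PBS library with each siRNA. PLA2G4A was at log2 0.05 (interval -0.19 to 0.29), PTGER4 at -0.04 (-0.29 to 0.21) and PTGES3 at -0.02 (-0.08 to 0.05). The median over the 5 genes was log2 0.05, against 0.01 over all genes. The single PBS library of each siRNA is assumed to vary as the HDM libraries do.

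Within LY96 siRNA, 0 of the 5 genes passed, where 4.9% of genes did. An unadjusted p below 0.05 was found for 2 of the 5 and for 2101 of all 12604 genes. PTGES was at log2 0.31 ± 0.10 (SE, limma adjusted p = 0.140) and PTGES2 at 0.16 ± 0.06 (SE, adjusted p = 0.172). Within control siRNA, 0 of the 5 passed, where 2.28% of genes did, and 0 had an unadjusted p below 0.05, against 2039 of all 12604 genes. There PTGES was at log2 0.17 ± 0.10 (SE, adjusted p = 0.461) and PLA2G4A at 0.24 ± 0.15 (SE, adjusted p = 0.482).

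The third comparison set the HDM response with LY96 siRNA against that with control siRNA. By limma, 0 of the 5 genes differed, where 0.0555% of genes did, and 0 had an unadjusted p below 0.05, against 956 of all 12604 genes. PLA2G4A had the most extreme estimate of the 5 (log2 -0.38 ± 0.21 SE, interval -0.86 to 0.10, adjusted p = 0.719). PTGER4 was at log2 0.16 (interval -0.33 to 0.66), PTGES at 0.14 (-0.18 to 0.46), PTGES2 at 0.08 (-0.10 to 0.26) and PTGES3 at 0.08 (-0.05 to 0.21). The intervals of PLA2G4A and PTGER4 are wide and those of PTGES2 and PTGES3 are narrower, and a p above the threshold does not show equal responses. LY96 against control siRNA under PBS rests on 1 library each and has no test. Its FPKM ratio was 0.718 for PTGES, 0.445 for PTGS2, 0.560 for PTGER2, 0.819 for HPGD, 0.869 for PTGER4, 0.913 for PTGES2, 0.917 for PTGES3, 1.26 for PLA2G4A and 1.75 for PTGS1.

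Other genes of the pathway included a few that did pass the test. Of 56 further genes for arachidonate release, prostanoid synthesis, transport, breakdown, receptors and the lipoxygenase branch, 27 averaged at least 1 FPKM. Abundant ones were ANXA1, which encodes annexin A1, a protein known to restrain phospholipase A2, and PTGR1, AKR1B1, CBR1 and LTA4H, which encode enzymes that reduce or convert prostanoids and leukotrienes. Among the other prostanoid receptors 1 of 9 listed reached the level, PTGFRN, which encodes a partner protein of the prostaglandin F receptor. The gene of that receptor, PTGFR, averaged 0.949 FPKM over the 8 libraries and 1.02 FPKM over the 6 HDM libraries. It was therefore tested for the siRNA effect under HDM alone. PTGDR was listed at 0 in all libraries. The leukotriene receptor genes CYSLTR1 and CYSLTR2 were likewise listed at 0.

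**Figure D3:**
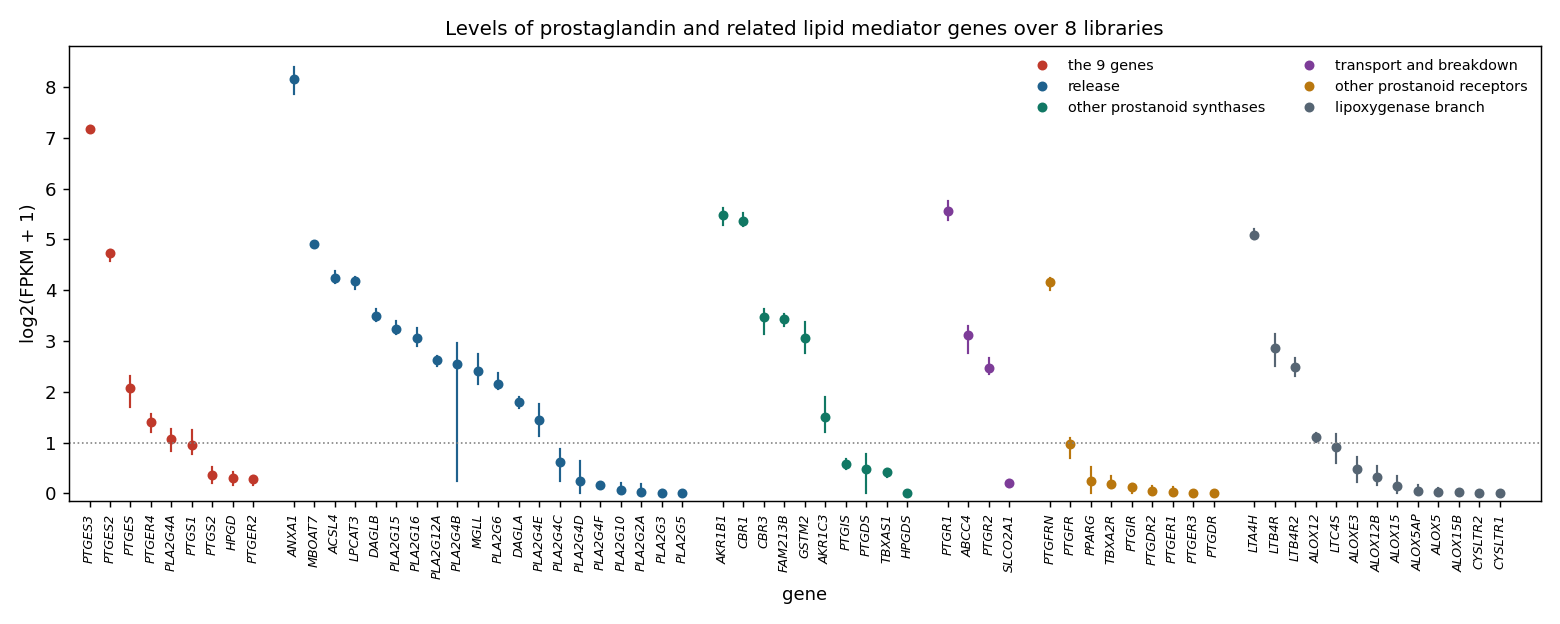
Level as log2(FPKM + 1) (y axis) of the 9 genes and 56 related genes (x axis), grouped by role. Points are means and lines the range over the 8 libraries; the dotted line marks 1 FPKM, and PTGES3 lies below ANXA1 and above AKR1B1 and PTGR1, PTGES2 lies below all 3 of these, and most receptor genes lie under the dotted line.

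With HDM over both siRNAs, 3 of 27 related genes rose and 2 fell, where 8.36% of all genes were called in either direction. The median of the 27 was log2 0.03, against 0.01 over all genes. ABCC4, which encodes a transporter that exports prostaglandins, rose by log2 0.38 ± 0.05 (SE, limma adjusted p = 0.00145). It averaged 8.59 ± 0.342 FPKM with LY96 siRNA and HDM and 7.89 ± 0.175 FPKM with control siRNA and HDM (SD, n = 3 each), against 6.36 FPKM with LY96 siRNA and PBS and 5.83 FPKM with control siRNA and PBS. Within LY96 siRNA it passed (adjusted p = 0.0130 in limma), and within control siRNA it also passed (adjusted p = 0.0226 in limma), though not there without control HDM replicate 2 or 3 (adjusted p = 0.0678 and 0.0612 in limma). CBR3, a carbonyl reductase gene, rose by log2 0.37 (limma adjusted p = 0.00788). It passed within LY96 siRNA (log2 0.46, adjusted p = 0.0206), though not there without LY96 HDM replicate 2 (adjusted p = 0.0523), and not within control siRNA (log2 0.28, adjusted p = 0.174). The difference between these responses was log2 0.18 (adjusted p = 0.786). LPCAT3, whose enzyme puts arachidonate back into phospholipids, rose by log2 0.17 (adjusted p = 0.0423), but lost the call in 10 of 15 alternatives, without any 1 library other than control HDM replicate 2 among them (adjusted p up to 0.0775), and it passed within neither siRNA (adjusted p = 0.179 with LY96 siRNA and 0.213 with control siRNA).

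ANXA1 fell with HDM by 0.31 on the log2 scale (SE 0.04, limma adjusted p = 0.00309). It averaged 246 ± 13.8 FPKM with LY96 siRNA and HDM and 293 ± 11.7 FPKM with control siRNA and HDM (SD, n = 3 each), against 334 FPKM with LY96 siRNA and PBS and 333 FPKM with control siRNA and PBS. Within LY96 siRNA it passed (log2 -0.44, adjusted p = 0.00468 in limma), and within control siRNA it did not (log2 -0.18, adjusted p = 0.203). The difference between these responses did not pass either (log2 -0.26, adjusted p = 0.552). MGLL, which encodes monoacylglycerol lipase, an enzyme that can supply arachidonate, fell by 0.41 on the log2 scale (SE 0.06, adjusted p = 0.00309). It averaged 3.67 ± 0.181 FPKM with LY96 siRNA and HDM and 4.20 ± 0.209 FPKM with control siRNA and HDM (SD, n = 3 each), against 5.35 FPKM with LY96 siRNA and PBS and 5.73 FPKM with control siRNA and PBS. Within LY96 siRNA it passed (log2 -0.44, adjusted p = 0.0178 in limma), and within control siRNA it did not (log2 -0.37, adjusted p = 0.0593). The difference between its responses was log2 -0.07 (adjusted p = 0.918). Both genes lay below the PBS library of their siRNA in 6 of 6 HDM libraries. The share of all genes with this order is not given, so the count adds nothing to the tests.

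With LY96 siRNA under HDM, 1 of 28 tested related genes rose and 2 fell, a share no higher than the 15.6% called over all genes. The median of the 28 was log2 -0.01, against -0.02 over all genes. ANXA1 fell by 0.26 on the log2 scale (SE 0.04, limma adjusted p = 0.00754). CBR1, another carbonyl reductase gene, fell by 0.15 on the log2 scale (adjusted p = 0.0309), but lost the call in 9 of 17 alternatives, without any 1 library other than control HDM replicate 2 among them (adjusted p up to 0.0837). AKR1C3, which encodes a prostaglandin F synthase, was at log2 0.28 (adjusted p = 0.0399), and it lost the call without any 1 of the 6 libraries (adjusted p from 0.0529 to 0.125 in limma) and has near-identical AKR1C copies that may share its reads. The difference in HDM response was called for 0 of 27 related genes in limma, where 0.0555% of all genes were. An unadjusted p below 0.05 was found for 2 of the 27 and for 956 of all 12604 genes.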

How the data were processed

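Total RNA of BEAS-2B cells was sequenced by the authors. The submitters' processing notes name HISAT2 2.2.0 for alignment and the build hg38. The quantifying program and the gene models are not stated there. The deposited values carry no named unit and were read as FPKM, since they are not whole numbers, differ in total between libraries and show no whole-read steps. Depth is therefore unknown and no counting interval is given. An exact 0 can be a failed estimate.

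Groups follow the titles in the labels. Tests used limma 3.58.1 in R 4.3.3 on log2(FPKM + 1), with a trended prior variance and robust moderation, over all genes averaging 1 FPKM or more in the libraries fitted. Fold changes on that scale understate changes of low genes. The siRNA effect used 6 HDM libraries. The other contrasts came from all 8 libraries with 4 group means. Residual degrees of freedom were 4 in both. P-values are two-sided, Benjamini-Hochberg adjusted over all genes tested, with a threshold of 0.05. Tables and motif searches used Python 3.11.15. Scripts were tested on simulated data.

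The 9 genes and the related gene list were chosen with earlier results of these data known. Named were the 9 genes, related genes called in any comparison, and LY96; CXCL8 and the abundant or undetected related genes were named after their values were seen. None of the 9 genes was called, so no genes of similar pattern are given. Coordinates are from GENCODE v29 (GRCh38) and promoter windows from RefSeq (GRCh38.p14). Alternatives were 2 pseudocounts, 2 filters, 2 scalings, limma without trend and robust moderation, each HDM library left out, a replicate block and additive or 4-mean fits over 8 libraries.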

Additional observations from a re-analysis of the deposited data

Results flagged for a closer look

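The HDM libraries of PTGER2 lay on opposite sides of the single PBS library under the 2 siRNAs. The ratio of HDM to PBS was 1.53 with LY96 siRNA, with 3 of 3 HDM libraries above the PBS library, and 0.713 with control siRNA, with 3 of 3 below it. The difference was not tested at the chosen level, since PTGER2 lies under 1 FPKM, and without the low-value filter it had a limma adjusted p of 0.727. No direction is read from these values. Each siRNA has 1 PBS library, all 8 values lie between 0.116 and 0.267 FPKM, and 10.3% of genes of 0.1 to 1 FPKM show the same opposition.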

How the results depend on the processing

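The count of tested genes that passed was 0 in all 5 comparisons under the pseudocounts of 0.1 and 0.5, both filters, both scalings, limma without trend and robust moderation, and with each HDM library left out. It was 1 (PTGES) for LY96 against control siRNA in the additive model over 8 libraries, where 19.7% of all genes passed, and 2 of 9 (PTGES and PTGS1) in that model without the low-value filter, an alternative added after seeing the data, where 9.8% did. PTGES had an adjusted p from 0.0222 to 0.206 over its 17 alternatives for the siRNA effect and from 0.0660 to 0.138 over 15 for HDM over both siRNAs. The sign of the PTGER4 difference turned for the siRNA effect without control HDM replicate 1 or LY96 HDM replicate 2 (log2 -0.039 to 0.14 with 1 library left out) and in the additive model with and without the filter (-0.0033 in both). It also turned without LY96 HDM replicate 3 for HDM over both siRNAs (-0.083 to 0.0073) and without LY96 HDM replicate 2 for HDM with LY96 siRNA (-0.039 to 0.14). The replicate block for the siRNA effect called 0 of the 5 genes and 1635 genes in all, against 1966 without the block, and among named genes it lost AKR1C3 (adjusted p = 0.0741). The labels do not say whether same-numbered HDM libraries were handled together. Their deviations from the group means correlated at 0.05, -0.02 and -0.02, which does not settle it. Calls over all genes moved most for the siRNA effect without control HDM replicate 2 or 3 (1119 and 1243), for HDM with control siRNA (288) without trend and robust moderation (180) and without control HDM replicate 2 (187), and for the difference in response (7), at 0 to 33. CBR3 with LY96 siRNA lost its call without LY96 HDM replicate 2, without the filter and without trend and robust moderation (adjusted p = 0.0523, 0.0827 and 0.0558). ANXA1 lost the siRNA call in the additive model without the filter (adjusted p = 0.0767). The causes were not tested. Genes under 1 FPKM are limited by an unknown depth.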
